A study of Homo sapiens with 18 samples.

Results

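AGR2, GDF15, KLF4 and S100P are 4 genes whose transcripts rose with the synthetic androgen R1881 in LNCaP cells that had received control siRNA, and whose response was smaller in cells that had received siRNA against UPF1 or against RCOR1. They were taken by symbol from the 60649 genes of the count table. They had been chosen by their R1881 responses and by the change of those responses with siRNA in these same libraries, so these values are described here without a test. LNCaP is an androgen-responsive human prostate adenocarcinoma line. Its total RNA was sequenced after depletion of ribosomal RNA in 18 libraries, with 3 biological replicates in each of 6 groups. The groups were UPF1 siRNA with R1881, UPF1 siRNA with vehicle, RCOR1 siRNA with R1881, RCOR1 siRNA with vehicle, control siRNA with R1881 and control siRNA with vehicle. R1881 was used at 5 nM and the vehicle was ethanol; treatment began 48 h after transfection and lasted 48 h. The control siRNA is non-targeting. All groups are of the same line and all were transfected, and the labels do not tell apart several siRNAs to a target, so the loss of a target and other effects of its siRNA cannot be told apart.

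Androgens change transcription through hormone response elements in chromatin, and many secretory genes of the prostate are under androgen control. UPF1 is the RNA helicase at the centre of nonsense-mediated decay, which degrades transcripts with premature stop codons and some normal transcripts. RCOR1, also called CoREST, is the scaffold of a repressor complex that contains a histone demethylase and histone deacetylases. AGR2 is a member of the protein disulfide isomerase family that resides in the endoplasmic reticulum and assists the folding of mucins. GDF15 is a secreted, divergent member of the TGF-beta superfamily that is released by stressed cells and acts through the receptor GFRAL with RET. KLF4 is a zinc finger transcription factor that binds GC-rich and CACCC sequences and takes part in epithelial differentiation. S100P is a small calcium-binding protein whose partners include ezrin and the receptor RAGE.

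The 4 genes lie on 4 chromosomes and share no exon with another annotated gene. Their IDs are given as in the count table, with versions that differ from GENCODE 29 for AGR2, KLF4 and S100P. In GENCODE 29 on GRCh38, AGR2 (ENSG00000106541.12) is at chr7:16791811-16833433 on the minus strand, GDF15 (ENSG00000130513.6) at chr19:18374731-18389176 on the plus strand, KLF4 (ENSG00000136826.15) at chr9:107484852-107490482 on the minus strand, and S100P (ENSG00000163993.7) at chr4:6693069-6697170 on the plus strand. Their longest transcripts differ in base composition, with a GC content of 41.5% in AGR2, 62.9% in GDF15, 55.0% in KLF4 and 52.8% in S100P.

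The promoters are shown because the 4 transcripts moved together with R1881 in control cells while their base composition differs. Each is the 250 bases before the gene's start in RefSeq (GRCh38.p14), given 5′ to 3′ on the gene's own strand. They lie at chr7:16805000-16805249 (minus strand, AGR2), chr19:18385908-18386157 (plus strand, GDF15), chr9:107489770-107490019 (minus strand, KLF4) and chr4:6693628-6693877 (plus strand, S100P), in each case within the wider GENCODE 29 extent of the gene. Capitals mark matches, on either strand, to the hormone response half-site TGTTCT, the GC box GGGCGG, the KLF box CACCC or the ATF4 element TGATGNAA.
AGR2: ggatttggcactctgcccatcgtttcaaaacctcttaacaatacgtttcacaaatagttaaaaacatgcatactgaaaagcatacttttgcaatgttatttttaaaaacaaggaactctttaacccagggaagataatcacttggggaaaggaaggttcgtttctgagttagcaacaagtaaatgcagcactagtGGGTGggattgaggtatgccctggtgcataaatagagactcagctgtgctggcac
GDF15: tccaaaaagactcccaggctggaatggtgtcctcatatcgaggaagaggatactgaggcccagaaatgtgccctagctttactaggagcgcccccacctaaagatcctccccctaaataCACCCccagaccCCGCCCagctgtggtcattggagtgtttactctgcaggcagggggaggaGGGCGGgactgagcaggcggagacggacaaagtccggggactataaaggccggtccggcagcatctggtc
KLF4: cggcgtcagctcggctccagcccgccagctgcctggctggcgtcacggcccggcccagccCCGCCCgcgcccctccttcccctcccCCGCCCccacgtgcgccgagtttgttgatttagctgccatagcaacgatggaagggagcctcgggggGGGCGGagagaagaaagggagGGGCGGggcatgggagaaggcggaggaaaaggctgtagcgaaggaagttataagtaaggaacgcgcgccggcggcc
S100P: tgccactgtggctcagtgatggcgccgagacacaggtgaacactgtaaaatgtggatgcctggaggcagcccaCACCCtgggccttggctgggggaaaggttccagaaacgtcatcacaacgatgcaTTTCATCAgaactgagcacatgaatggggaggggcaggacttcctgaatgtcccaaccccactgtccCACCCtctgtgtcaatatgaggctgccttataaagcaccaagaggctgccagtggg
The windows held different motifs. AGR2 had 1 CACCC, GDF15 had 2 GGGCGG and 1 CACCC, KLF4 had 4 GGGCGG, and S100P had 2 CACCC and 1 TGATGNAA. None of the marked matches overlapped another. The letters TGTTCT or their reverse complement were in none of the 4 windows. Among 35116 RefSeq promoters of this length, TGTTCT was in 12.4%, GGGCGG in 42.6%, CACCC in 54.7% and TGATGNAA in 3.14%. The GC content of the windows was 40.4% in AGR2, 58.4% in GDF15, 69.2% in KLF4 and 55.6% in S100P, against a median of 58.0% over all promoters. A match is a run of letters and was not tested for binding.

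Library totals ranged from 10299607 to 17338235 counts, and levels are given in CPM, a gene's counts scaled to the library total, which was corrected by the trimmed mean of M values (TMM). The targeted transcripts were lower with their siRNA. UPF1 averaged 26.3 ± 0.674 CPM in R1881 and 22.8 ± 2.79 CPM in vehicle with UPF1 siRNA, against 149.3 ± 13.1 and 134.4 ± 17.5 CPM with control siRNA (SD, n = 3 each). RCOR1 averaged 12.5 ± 0.296 CPM in R1881 and 12.8 ± 3.44 CPM in vehicle with RCOR1 siRNA, against 79.7 ± 9.96 and 99.6 ± 8.82 CPM with control siRNA (SD, n = 3 each). UPF1 was also lower with RCOR1 siRNA, at 116.6 CPM in R1881 and 107.7 CPM in vehicle. Averaged over both treatments, its log2 difference from control siRNA was -0.34 ± 0.08 (SE, adjusted p = 0.00457, edgeR). For RCOR1 with UPF1 siRNA that average was -0.03 ± 0.10 (adjusted p = 0.805, edgeR). All 10 LNCaP markers were expressed, with summed levels of 5339 to 14660 CPM, whereas 17 markers of other cell types summed to 5.51 to 13.96 CPM. Of these, TP63, COL1A2, CDH5, CD3E, CHGA and INSM1 had no counts. The highest were COL1A1 (3.25 to 12.5 CPM) and KRT14 (0.64 to 6.30 CPM). KRT14 rose with R1881 by 2.78 with UPF1 siRNA, 1.58 with RCOR1 siRNA and 1.335 with control siRNA on the log2 scale. COL1A1 fell with R1881 with each siRNA. Replicates are numbered in accession order, which pairs none of them. In the median deviation of AT-rich transcripts from their means, replicate 1 was the lowest of its group except in vehicle-treated control cells. Replicates 1 and 2 of UPF1 siRNA with R1881 stood apart most. Their AT-rich transcripts deviated by -0.63 and -0.44 on the log2 scale, against -0.32 to 0.42 in the other libraries. They had MALAT1 at 3761 and 4588 CPM, against 10830 to 35090 CPM in the other libraries. Results were also computed without these libraries, and the larger changes are given below. In bulk RNA, fewer cells with a transcript and less of it per cell cannot be told apart.

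AGR2 was lowest in control cells without androgen and highest in UPF1 siRNA cells with androgen. In UPF1 siRNA cells it had 67.4, 57.5 and 72.1 CPM with R1881 and 54.8, 54.3 and 53.9 CPM with vehicle. In RCOR1 siRNA cells it had 16.4, 17.5 and 15.5 CPM with R1881 and 9.03, 10.4 and 11.5 CPM with vehicle, and in control cells 40.8, 43.9 and 42.9 CPM with R1881 and 7.22, 7.01 and 7.79 CPM with vehicle. None of the 6 groups overlapped another, which was not compared with other genes. The margin between the UPF1 siRNA groups was small, from 57.5 CPM in the lowest R1881 library to 54.8 CPM in the highest vehicle library. That R1881 library was among those that stood apart most in AT-rich transcripts. After both UPF1 siRNA groups came control cells with R1881. RCOR1 siRNA cells with R1881, RCOR1 siRNA cells with vehicle and control cells with vehicle followed in that order. Vehicle-treated UPF1 siRNA cells were thus above control cells that had received R1881.

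GDF15 had by far the highest level of the 4 per length of exon, 90.3 to 468 CPM per kb over the group means, against 2.58 to 23.1 CPM per kb for the other genes. In UPF1 siRNA cells it had 1085, 965.5 and 882.1 CPM with R1881 and 1069, 902.5 and 691.1 CPM with vehicle. RCOR1 siRNA cells had 222.8, 216.4 and 196.9 CPM with R1881 and 210.7, 233.4 and 180.2 CPM with vehicle, and control cells 683.2, 593.8 and 555.3 CPM with R1881 and 171.3, 209.3 and 185.0 CPM with vehicle. The groups followed the same order as for AGR2, but R1881 and vehicle overlapped in UPF1 siRNA cells and in RCOR1 siRNA cells, and RCOR1 siRNA cells overlapped vehicle-treated control cells. GDF15 was therefore separated into a high level with UPF1 siRNA, an intermediate level in control cells with R1881, and a low level elsewhere.

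KLF4 differed from AGR2 and GDF15 in its order. In UPF1 siRNA cells it had 43.1, 36.2 and 37.4 CPM with R1881 and 73.0, 57.6 and 46.0 CPM with vehicle. RCOR1 siRNA cells had 26.7, 28.0 and 26.4 CPM with R1881 and 31.3, 32.7 and 28.7 CPM with vehicle, and control cells 37.4, 39.97 and 38.8 CPM with R1881 and 13.98, 11.8 and 14.6 CPM with vehicle. With either targeting siRNA the mean with R1881 was below that with vehicle, the opposite of control cells. The margins between libraries were small. The highest R1881 and lowest vehicle libraries had 43.1 and 46.0 CPM with UPF1 siRNA, and 28.0 and 28.7 CPM with RCOR1 siRNA. With RCOR1 siRNA the log2 difference was -0.19 ± 0.13 (SE). Vehicle-treated UPF1 siRNA cells were highest and the most variable, and in these 3 libraries the median deviation of AT-rich transcripts also varied, at -0.16, 0.26 and 0.42 on the log2 scale; its part in the KLF4 values was not tested.

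S100P had the fewest counts of the 4, so that counting error weighs most in its low groups, with 51 to 85 counts per library in vehicle-treated control cells. In UPF1 siRNA cells it had 25.0, 21.5 and 18.9 CPM with R1881 and 25.9, 21.6 and 19.4 CPM with vehicle. RCOR1 siRNA cells had 9.68, 8.51 and 10.5 CPM with R1881 and 5.23, 5.87 and 4.82 CPM with vehicle, and control cells 22.6, 23.1 and 22.9 CPM with R1881 and 4.24, 5.90 and 4.68 CPM with vehicle. Both UPF1 siRNA groups and control cells with R1881 overlapped at the top, RCOR1 siRNA cells with R1881 were alone in the middle, and RCOR1 siRNA and control cells with vehicle overlapped at the bottom.

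**Figure D1:**
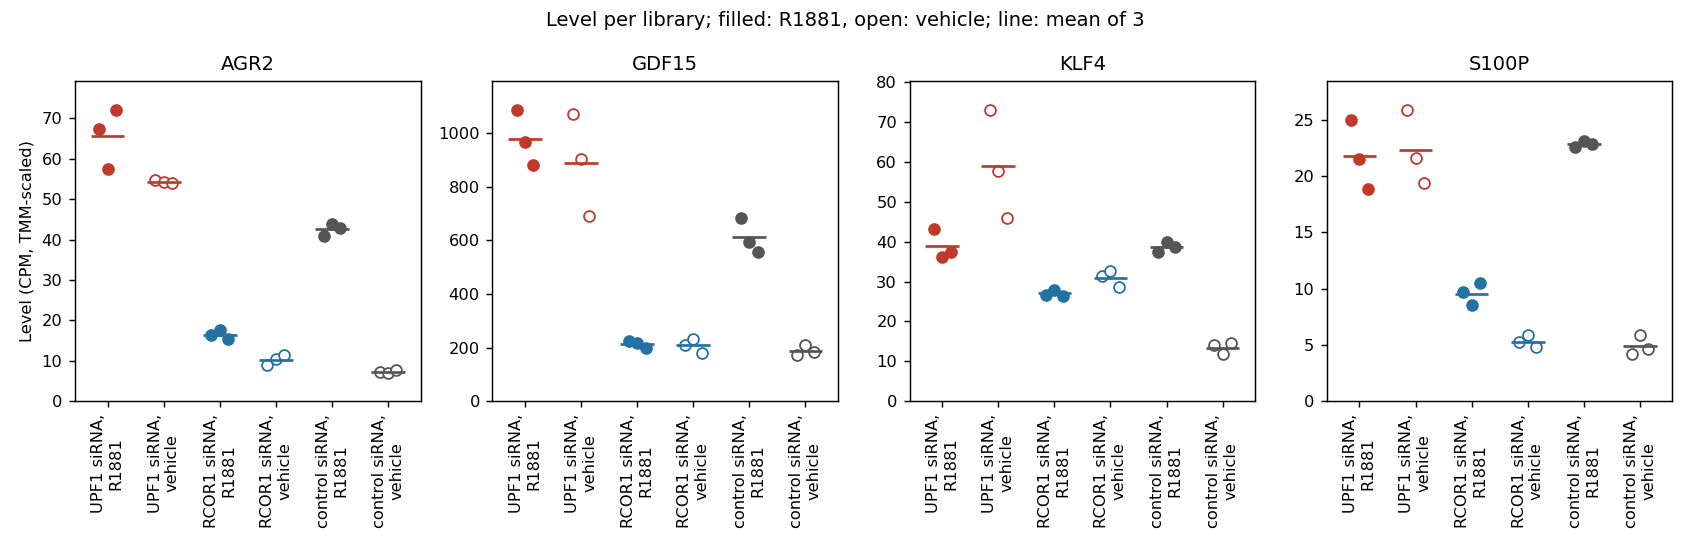
Level of each gene in CPM (vertical axis, linear, from 0) in 18 libraries by siRNA and treatment; points are libraries, filled for R1881 and open for vehicle, and lines are means of 3. With UPF1 siRNA the vehicle libraries stand near or above the R1881 libraries of control cells, while with RCOR1 siRNA the R1881 libraries of AGR2, GDF15 and S100P stand far below them.

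The R1881 response, the log2 fold change of R1881 over vehicle within an siRNA arm, summarised these levels. For AGR2 it was 0.27 ± 0.09 with UPF1 siRNA, 0.68 ± 0.10 with RCOR1 siRNA and 2.54 ± 0.11 with control siRNA (± SE). For GDF15 it was 0.14 ± 0.14, 0.03 ± 0.14 and 1.70 ± 0.15 in the same arms. For KLF4 it was -0.60 ± 0.13, -0.19 ± 0.13 and 1.53 ± 0.14, and for S100P -0.03 ± 0.13, 0.85 ± 0.15 and 2.21 ± 0.15. GDF15 was thus nearly flat with either targeting siRNA, and AGR2 and S100P still had a positive response with RCOR1 siRNA. KLF4 was negative with UPF1 siRNA, and with RCOR1 siRNA it was below 0 by little more than its SE. By edgeR's quasi-likelihood test, R1881 responses were called in 41.6% of tested genes with UPF1 siRNA (21.6% higher, 20% lower), 31.2% with RCOR1 siRNA (16.3% higher, 14.9% lower) and 37.7% with control siRNA (20.1% higher, 17.6% lower); nothing is read from these shares about the 4 genes, which were chosen on this contrast. Without replicates 1 and 2 of UPF1 siRNA with R1881 the share with UPF1 siRNA was 18.4%. Over all 15390 genes tested the median response was -0.01 with UPF1 siRNA, 0.02 with RCOR1 siRNA and 0.02 with control siRNA. Without replicates 1 and 2 of UPF1 siRNA with R1881, the responses with UPF1 siRNA were 0.38 for AGR2, -0.05 for GDF15, -0.69 for KLF4 and -0.28 for S100P.

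**Figure D2:**
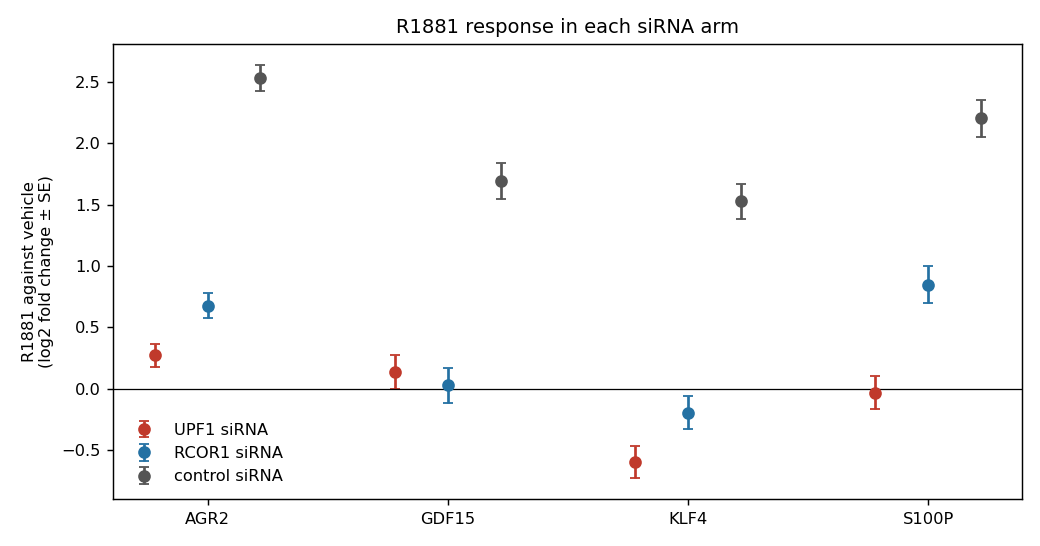
R1881 response of each gene (log2 fold change of R1881 over vehicle, ± SE, 3 libraries a group) with UPF1, RCOR1 and control siRNA. The control responses lie between 1.53 and 2.54, and none of the responses with a targeting siRNA exceeds 0.85.

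The smaller responses had different components with each siRNA. With UPF1 siRNA the vehicle level was far above control: the log2 difference in vehicle was 2.89 for AGR2, 2.24 for GDF15, 2.13 for KLF4 and 2.17 for S100P, whereas in R1881 it was 0.63, 0.68, 0.01 and -0.07 for the same genes. With RCOR1 siRNA the R1881 level was below control, by log2 differences of -1.37 for AGR2, -1.53 for GDF15, -0.52 for KLF4 and -1.25 for S100P. In vehicle the RCOR1 differences were 0.49, 0.14, 1.20 and 0.10 in that order of genes, so that KLF4 alone of the 4 had its larger difference in vehicle. The interaction, which is the response with the targeting siRNA minus the response with control siRNA, was -2.26 with UPF1 siRNA and -1.86 with RCOR1 siRNA for AGR2. It was -1.56 and -1.67 for GDF15, -2.12 and -1.72 for KLF4, and -2.24 and -1.36 for S100P. Both comparisons share the control libraries.

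These interactions chose the genes and are set here among all genes as a description. By edgeR's quasi-likelihood test at an adjusted p below 0.05, 2.72% of tested genes had a UPF1 interaction (1.35% higher, 1.37% lower) and 0.767% an RCOR1 interaction (0.227% higher, 0.539% lower). Both were negative in 31 genes, 0.201% of those tested, and each of these also had a called rise with R1881 in control cells. These counts depend on the libraries and the settings: without replicates 1 and 2 of UPF1 siRNA with R1881, 0.37% of genes had a UPF1 interaction and 0.286% an RCOR1 interaction, and both were negative in 9 genes. Over the other scalings, no filter (with more genes tested) and DESeq2, the shares were 2.53% to 4.8% and 0.256% to 1.02%. Both interactions were negative in 10 to 33 genes. Of called UPF1 interactions 49.6% were higher, against 31.6% without these libraries, 17.2% with no filter and 75.2% with scaling by library total only. Ranked by the smaller of their 2 reductions, AGR2 (1.86) was 3rd, KLF4 (1.72) 5th, GDF15 (1.56) 6th and S100P (1.36) 8th. The others among the first 8 were RP11-104G3.2, EMP1, DUSP5 and TPM1-AS (an antisense gene, whose reads may be those of the opposite strand), and the next after S100P was ERRFI1 at 0.79.

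The average effect of each siRNA over both treatments was tested. Its weights on the groups make it uncorrelated with the interactions if all groups vary equally and have equal numbers of libraries. The spread was not equal throughout: with UPF1 siRNA, KLF4 had an SD of 13.5 CPM in vehicle and 3.68 CPM in R1881. Numbers are also unequal where libraries are left out, so the choice of the genes may still bear on these p-values. UPF1 siRNA raised all 4 genes, in a comparison in which 45.3% of tested genes were called and 24% were called higher. AGR2 rose by 1.76 ± 0.07 on the log2 scale (95% interval 1.61 to 1.91, adjusted p = 7.23e-11, edgeR). GDF15 rose by 1.46 ± 0.10 (1.24 to 1.67, adjusted p = 1.67e-08), KLF4 by 1.07 ± 0.10 (0.87 to 1.27, adjusted p = 2.36e-07) and S100P by 1.05 ± 0.10 (0.84 to 1.27, adjusted p = 4.6e-07). The median over all genes was 0.00. For KLF4 and S100P this average was made almost wholly in vehicle, since their differences in R1881 were near 0.

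RCOR1 siRNA lowered AGR2, GDF15 and S100P on average and raised KLF4, where 22% of tested genes were called, 9.9% higher and 12.2% lower. AGR2 fell by 0.44 ± 0.07 on the log2 scale (95% interval -0.60 to -0.29, adjusted p = 0.000447, edgeR). GDF15 fell by 0.69 ± 0.10 (-0.91 to -0.48, adjusted p = 0.000142) and S100P fell by 0.58 ± 0.11 (-0.80 to -0.35, adjusted p = 0.00115), while KLF4 rose by 0.34 ± 0.10 (0.14 to 0.55, adjusted p = 0.0181). For AGR2 and KLF4 these averages join differences of opposite sign in vehicle and in R1881. For GDF15 and S100P the differences in vehicle were near 0, at 0.14 ± 0.14 and 0.10 ± 0.16 (± SE), so their averages came mostly from R1881. The averages are thus the balance of both treatments and not the size in either. The KLF4 call was the closest to the threshold, with an adjusted p of up to 0.0486 when libraries were left out in turn.

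The average effects of UPF1 and RCOR1 siRNA differed from each other for all 4 genes, in a comparison that called 47.9% of genes, 25.6% higher and 22.3% lower with UPF1 siRNA. UPF1 siRNA exceeded RCOR1 siRNA by 2.198 ± 0.07 for AGR2 (adjusted p = 5.42e-12, edgeR), 2.15 ± 0.10 for GDF15 (adjusted p = 2.67e-10), 0.73 ± 0.09 for KLF4 (adjusted p = 1.07e-05) and 1.63 ± 0.10 for S100P (adjusted p = 4.46e-09), as log2 differences. KLF4, the gene that both siRNAs raised on average, had the smallest of these differences.

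**Figure D3:**
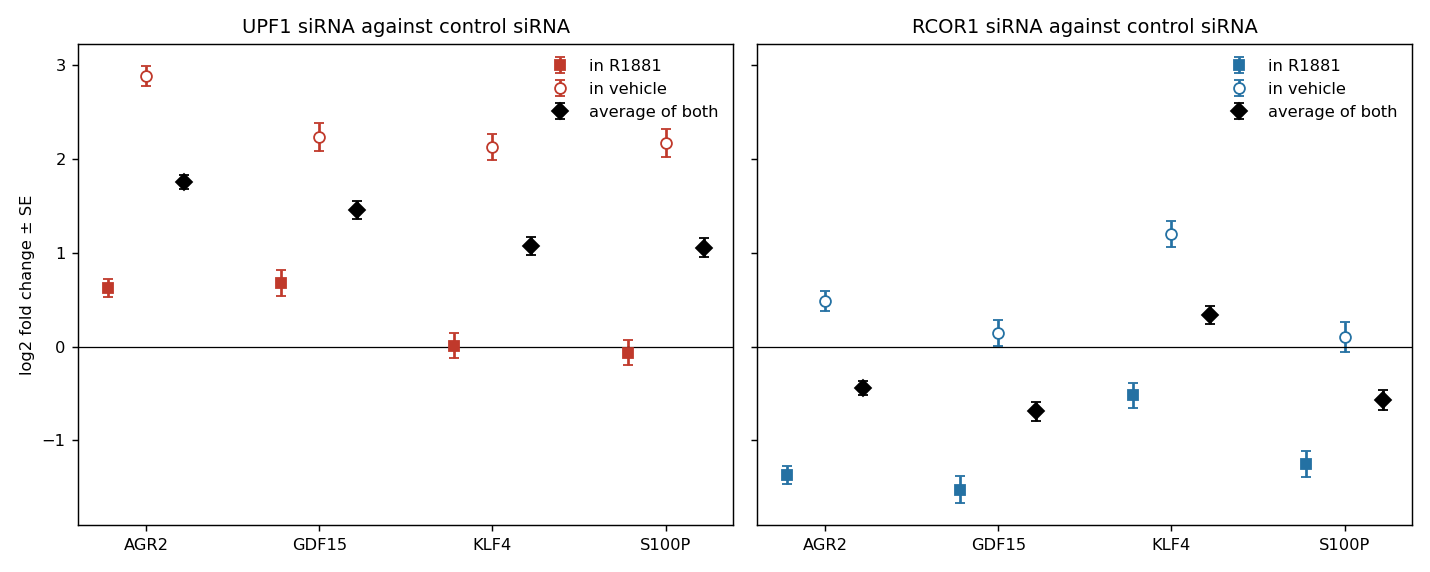
Log2 fold change (± SE) of UPF1 siRNA (left) and RCOR1 siRNA (right) over control siRNA, in R1881 (squares), in vehicle (open circles) and averaged (diamonds). With UPF1 siRNA the vehicle values lie between 2.13 and 2.89 and the R1881 values between -0.07 and 0.68; with RCOR1 siRNA the R1881 values lie between -1.53 and -0.52.

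KLK3, TMPRSS2 and FKBP5, established androgen-induced genes, had large responses in every arm. KLK3, which encodes prostate-specific antigen, responded by 3.89 ± 0.12 with UPF1 siRNA, 2.77 ± 0.11 with RCOR1 siRNA and 3.61 ± 0.12 with control siRNA (log2, ± SE). TMPRSS2, a surface serine protease, responded by 3.23, 2.63 and 3.45, and FKBP5, a steroid receptor co-chaperone, by 4.78, 4.99 and 5.21 in the same arms. The RCOR1 interaction was called for KLK3 (-0.85 ± 0.15, adjusted p = 0.0114, edgeR) and TMPRSS2 (-0.82 ± 0.10, adjusted p = 0.000804), and the UPF1 interaction for none of the 3 (adjusted p of 0.314, 0.24 and 0.157). Without replicates 1 and 2 of UPF1 siRNA with R1881, the adjusted p of the RCOR1 interaction was 0.0555 for KLK3 and 0.0083 for TMPRSS2.

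The protein family of each gene was examined next, with counts to be read against all genes tested, of which 24% rose and 21.2% fell with UPF1 siRNA and 9.9% rose and 12.2% fell with RCOR1 siRNA. Of 21 other protein disulfide isomerases 17 passed the filter on low counts; with UPF1 siRNA 10 rose and 1 fell, with a median of 0.25, and with RCOR1 siRNA 1 rose and 8 fell, with a median of -0.22. ERP29, a chaperone of the endoplasmic reticulum, had the largest rise with UPF1 siRNA at 0.51 ± 0.06 (adjusted p = 6.04e-06, edgeR), below the 1.76 of AGR2. PDIA4 fell with RCOR1 siRNA by 0.42 ± 0.05 (adjusted p = 1.5e-05), close to AGR2. The R1881 response was called higher in 11 of the 17 in every arm, against backgrounds of 21.6% with UPF1 siRNA, 16.3% with RCOR1 siRNA and 20.1% with control siRNA. PDIA5 responded by 1.88 ± 0.10 with UPF1 siRNA, 1.56 ± 0.10 with RCOR1 siRNA and 1.70 ± 0.10 with control siRNA.

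Of 37 TGF-beta superfamily and GDF15 receptor genes 25 passed the filter; 9 rose and 6 fell with UPF1 siRNA, with a median of 0.18, and 7 rose and 2 fell with RCOR1 siRNA, with a median of 0.07. RET, the co-receptor of GFRAL, rose with UPF1 siRNA by 1.33 ± 0.38 (adjusted p = 0.00926, edgeR); without replicates 1 and 2 of UPF1 siRNA with R1881 its value was 0.68 (adjusted p = 0.298). The ligand GDF11 fell with both, by 1.16 ± 0.06 with UPF1 siRNA and 0.65 ± 0.06 with RCOR1 siRNA (adjusted p = 1.58e-09 and 3.03e-06), whereas the ligand TGFB3 rose with UPF1 siRNA by 1.098 ± 0.27 (adjusted p = 0.00386). GDF15 had the highest value of this family with UPF1 siRNA and the lowest with RCOR1 siRNA.

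Of 25 other KLF and SP factors 18 passed the filter; 3 rose and 3 fell with UPF1 siRNA, and none rose and 3 fell with RCOR1 siRNA, with medians of -0.02 and -0.08. The shares called, 33.3% with UPF1 siRNA and 16.7% with RCOR1 siRNA, were below those over all genes, 45.3% and 22%. KLF15, a factor known for metabolic gene control, fell by 0.83 ± 0.13 with UPF1 siRNA and 0.60 ± 0.13 with RCOR1 siRNA (adjusted p = 7.54e-05 and 0.00303, edgeR). KLF5, an epithelial factor often set against KLF4, responded to R1881 in every arm, by 2.27 ± 0.16 with UPF1 siRNA, 1.77 ± 0.16 with RCOR1 siRNA and 1.97 ± 0.16 with control siRNA. No UPF1 or RCOR1 interaction was called in the 18 factors by edgeR or by DESeq2; at an unadjusted p below 0.05 there were 2 and 1.

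Of 24 S100 proteins and partners other than S100P only 7 passed the filter; 3 rose with UPF1 siRNA and 2 rose with RCOR1 siRNA, and none fell, with medians of 0.30 and 0.11. S100A11 rose by 0.39 ± 0.08 with UPF1 siRNA and 0.33 ± 0.08 with RCOR1 siRNA (adjusted p = 0.000634 and 0.0062, edgeR), the opposite direction to S100P with RCOR1 siRNA. EZR, which encodes the S100P partner ezrin, responded to R1881 by 0.69 ± 0.07 with UPF1 siRNA, 0.85 ± 0.07 with RCOR1 siRNA and 0.96 ± 0.07 with control siRNA.

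**Figure D4:**
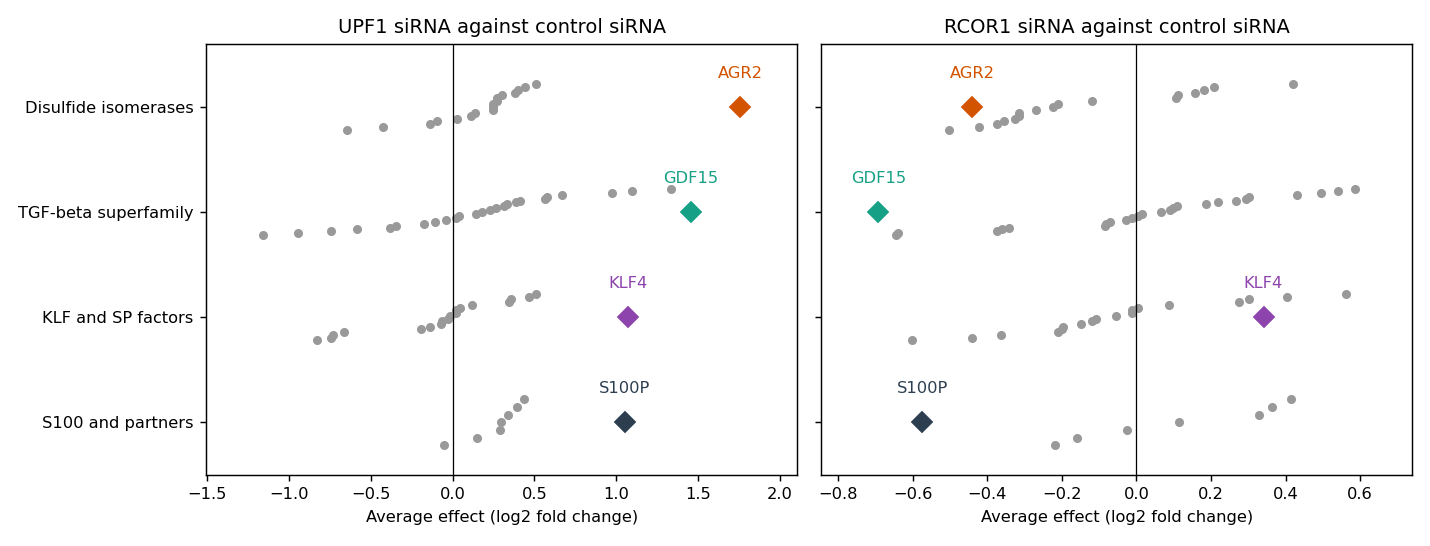
Average effect (log2 fold change) of UPF1 siRNA (left) and RCOR1 siRNA (right) over control siRNA for the 4 genes (diamonds) and the tested genes of their families (grey points); the horizontal scales differ. With UPF1 siRNA each of the 4 genes lies above the other tested genes of its family, from 1.05 for S100P to 1.76 for AGR2.

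Other secretory and stress genes were described in the same way. Of 31 secretory epithelial genes 20 passed the filter, of which 12 rose and 2 fell with UPF1 siRNA (median 0.49) and 4 rose and 6 fell with RCOR1 siRNA (median 0.17). CEACAM6, a surface glycoprotein, rose with UPF1 siRNA by 2.98 ± 0.30 (adjusted p = 7.24e-07, edgeR) and had the UPF1 interaction -3.64 ± 0.65 (adjusted p = 0.00718). XBP1, the transcription factor of the unfolded protein response, had both interactions, -0.58 ± 0.10 with UPF1 siRNA and -0.60 ± 0.10 with RCOR1 siRNA (adjusted p = 0.00402 and 0.00653). Without replicates 1 and 2 of UPF1 siRNA with R1881, the adjusted p was 0.102 and 0.0555 for XBP1 and 0.0283 for CEACAM6. Of 18 targets of the integrated stress response 17 passed the filter, of which 10 rose and 1 fell with UPF1 siRNA (median 0.34) and none rose and 9 fell with RCOR1 siRNA (median -0.34). The stress factors DDIT3, NUPR1 and ATF4 rose with UPF1 siRNA by 1.39 ± 0.07, 1.16 ± 0.08 and 0.86 ± 0.05 (adjusted p = 4.16e-10, 1.29e-08 and 5.87e-09). All 20 p53 targets passed the filter, and 6 rose and 2 fell with UPF1 siRNA (median 0.09) and 6 rose and 1 fell with RCOR1 siRNA (median 0.08), where 24% and 9.9% of all genes rose. Of 19 listed symbols of interferon-stimulated genes 18 were in the count table, and all 18 passed the filter. All 18 rose with UPF1 siRNA (median 0.99), while 6 rose and none fell with RCOR1 siRNA. RSAD2, an antiviral enzyme, rose with UPF1 siRNA by 2.27 ± 0.09 (adjusted p = 7.15e-11, edgeR). The part of these changes in the levels of the 4 genes was not tested.

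The genes with the most similar profiles were found by the root mean square distance of centred log2 CPM over 18 libraries. The 4 genes were chosen for a shared pattern over these same libraries, so their distances from each other restate that choice in part and are given as a description. Between AGR2, GDF15 and S100P they were small, at 0.38 between AGR2 and GDF15, 0.39 between AGR2 and S100P, and 0.38 between GDF15 and S100P. No other gene was closer to AGR2 than GDF15 was. KLF4 was farther away, at 0.77 from AGR2, 0.66 from GDF15 and 0.60 from S100P. Of other genes, 121 were closer to AGR2 than KLF4 was, and 144 were closer to GDF15 than KLF4 was. Closer to KLF4 than S100P were 1826 genes. Outside the 4 genes, AGR2 was nearest to PTPRN2 (0.47), KL (0.48), CLDN8 (0.48), SDCBP2 (0.49) and EDN1 (0.50). GDF15 was nearest to OSGIN1 (0.36), NUPR1 (0.36), FLVCR2 (0.37), DUSP3 (0.40) and NFKBIB (0.43). KLF4 was nearest to the noncoding KDM7A-DT (0.29), PEX11A (0.34), ATG9B (0.35), ISG20 (0.36) and APOL3 (0.37). S100P was nearest to SDCBP2 (0.28), EGR1 (0.40), NUPR1 (0.40), LPXN (0.42) and MGLL (0.42). SDCBP2, a PDZ-domain protein, stood near both AGR2 and S100P, and NUPR1 near both GDF15 and S100P. The distance grows with the size of a gene's changes, so values are compared only among genes set beside the same gene.

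**Figure D5:**
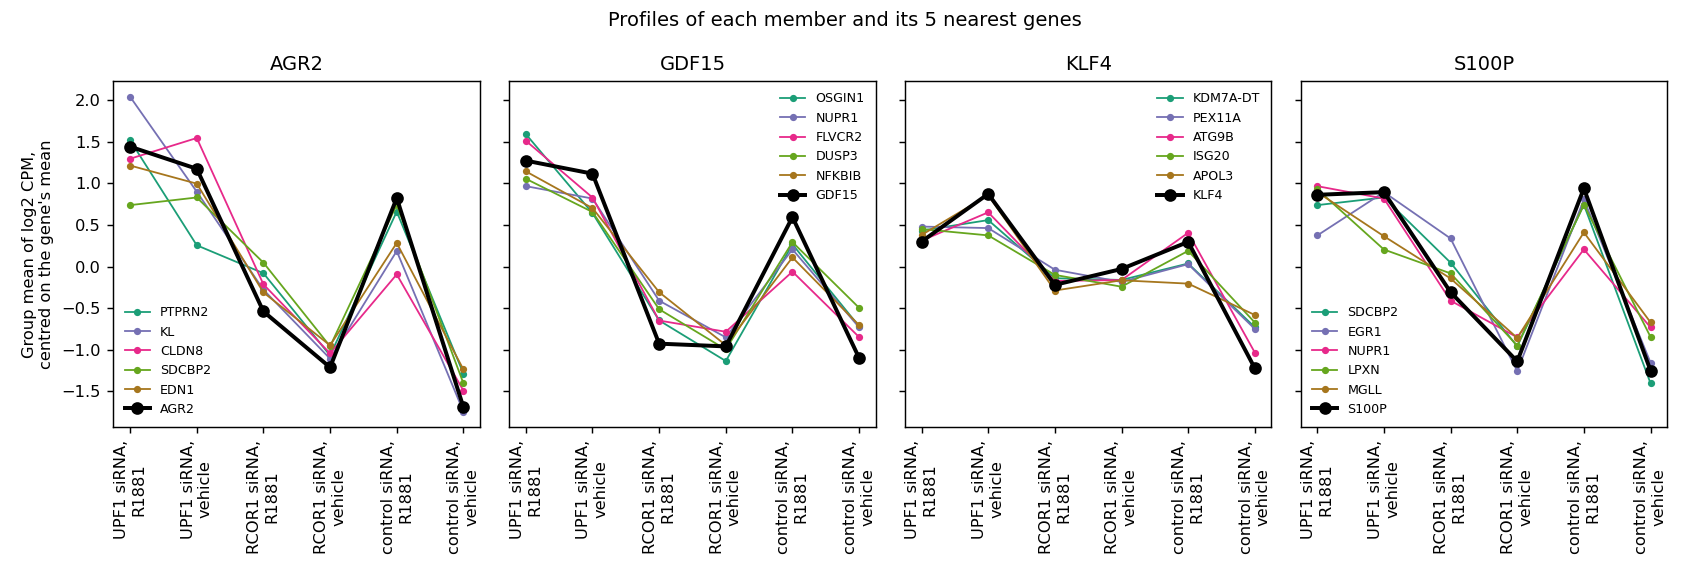
Group means of log2 CPM centred on each gene's mean (vertical axis) in the 6 groups for each of the 4 genes (black) and its 5 nearest genes (coloured). AGR2, GDF15 and S100P are above their means with UPF1 siRNA and in control cells with R1881, at 0.82, 0.60 and 0.94 in the last group, where the neighbours CLDN8 (-0.09) and FLVCR2 (-0.06) lie below theirs; KLF4 is highest with UPF1 siRNA in vehicle.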

How the data were processed

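RNA of LNCaP cells was measured in 18 libraries. The authors deposited raw counts: unnormalized whole numbers, each the reads assigned to a gene in a library. Per the submitters' processing notes, bcl2fastq 2.20, STAR 2.7.9a, featureCounts of Subread 1.6.4 and the build GRCh38.p7 were used. The sources used here do not state the annotation release, the strand setting or read filters.

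The counts went into edgeR 4.0.16 (R 4.3.3). Its filterByExpr, applied by group, kept 15390 of 60649 genes. TMM scaling was followed by a model with a mean for each of the 6 groups, fitted over the 18 libraries together. Contrasts used the quasi-likelihood F test, Benjamini-Hochberg adjustment over all genes, and calls at an adjusted p below 0.05. Each SE was obtained from the log2 fold change and F. SE and SD cover counting error and the spread between libraries. The scripts were tested on simulated data. Library totals of 10299607 to 17338235 counts set the precision.

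The 4 genes and the gene lists were chosen with earlier results of these data known. The named genes are the 4 genes, the 5 other genes nearest to each, up to 3 called genes of largest change per list and contrast, both targeted genes, and KLK3, TMPRSS2 and FKBP5; where a listed gene is named in a further contrast, its value there was seen first. Distances used log2 CPM with a prior count of 2. RefSeq promoters matched all 4 genes by symbol. Alternatives were library size alone, DESeq2 1.42.0 size factors, DESeq2's Wald test, no filter, and libraries left out.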

Additional observations from a re-analysis of the deposited data

Results flagged for a closer look

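The average effects of UPF1 siRNA and of RCOR1 siRNA on the 4 genes differed by a direct test, with UPF1 minus RCOR1 log2 differences of 2.198 for AGR2, 2.15 for GDF15, 0.73 for KLF4 and 1.63 for S100P.

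In the gene lists and the androgen-induced genes, the R1881 response differed between UPF1 siRNA and control siRNA, by the test of the interaction, for CEACAM6 (-3.64), TFF1 (-2.07), XBP1 (-0.58), NUPR1 (-0.80), ATF3 (-0.69), TNFRSF10B (-0.41) and RSAD2 (-0.91), where it was smaller or more negative, and for PDIA4 (0.52), where it was larger. It differed between RCOR1 siRNA and control siRNA for ELF3 (-0.91), XBP1 (-0.60), HERPUD1 (-0.52), KLK3 (-0.85) and TMPRSS2 (-0.82), and for TGFBR3 (0.83), where it was larger. These are log2 differences called by edgeR at an adjusted p below 0.05 over all genes. Without replicates 1 and 2 of UPF1 siRNA with R1881, 12 of these 14 calls were lost, and only those of CEACAM6 and TMPRSS2 were made. Over all alternatives the TNFRSF10B call held under 7 of 23 alternatives, that of TGFBR3 under 11 and that of HERPUD1 under 2.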

How the results depend on the processing

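The 12 tested effects on the 4 genes kept their direction and their side of the threshold under all 23 alternatives (276 of 276 comparisons); of the described values recomputed, 811 moved by less than 1 SD between replicates and 17 by more. No paired analysis was made because the labels give no replicate numbers: each title carries its own running number, and no label ties libraries of different groups to a set. Within each treatment the running numbers follow the order control, RCOR1 and UPF1 siRNA. Sets read from that order would be an assumption, and an effect of such sets was not tested. When libraries were scaled by their totals only, the median over all tested genes was -0.10, -0.17 and -0.22 in the R1881 response with UPF1, RCOR1 and control siRNA, 0.12 in the UPF1 difference in R1881 and 0.15 in the UPF1 interaction. Against that shift, the R1881 responses with RCOR1 siRNA were 0.49 for AGR2, -0.17 for GDF15, -0.39 for KLF4 and 0.65 for S100P, and with control siRNA 2.29, 1.46, 1.28 and 1.96. For AGR2 the UPF1 difference in R1881 was 0.74 and the UPF1 interaction -2.12, 57 genes had a called RCOR1 interaction (118 with TMM), and 1 gene of the family and pathway lists did. The share of calls that were higher, with library size alone against TMM, was 37.3% against 51.9%, 29.3% against 52.3% and 26.5% against 53.3% for the R1881 response with UPF1, RCOR1 and control siRNA. It was 63.7% against 44.9% for the RCOR1 average, 75.2% against 49.6% for the UPF1 interaction and 50.9% against 29.7% for the RCOR1 interaction.

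Without replicates 1 and 2 of UPF1 siRNA with R1881, which leaves a lone library assumed to vary like the other groups, S100P had an R1881 response of -0.28 with UPF1 siRNA, a UPF1 difference in R1881 of -0.31 and a UPF1 interaction of -2.45, and AGR2 a UPF1 interaction of -2.13. Genes called were then 2836 for the R1881 response with UPF1 siRNA, 57 for the UPF1 interaction and 44 for the RCOR1 interaction, and genes called in the family and pathway lists, which hold neither KLK3 nor TMPRSS2, were 46, 1 and 0, with fewer samples in the fit. The UPF1 interaction was called for 419 genes, 1320 with no filter, where more genes were tested, and 638 with DESeq2. The cause was not tested. Leaving out each library in turn gave -0.75 to -0.41 for the KLF4 response with UPF1 siRNA, 1.94 to 2.28 for its UPF1 difference in vehicle and -2.27 to -1.93 for its UPF1 interaction. These extremes came without replicate 3 or replicate 1 of UPF1 siRNA with vehicle. It gave 195 to 1169 genes for the UPF1 interaction and 52 to 132 for the RCOR1 interaction. Of 139 named list results, 106 were called under every alternative. Without the same 2 libraries, 4 of the 5 genes nearest to AGR2 and to S100P, 5 of 5 for GDF15 and 3 of 5 for KLF4 were shared, an alternative chosen after seeing the data. Depth limits S100P and AGR2 most, in vehicle-treated control cells.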
